A study of Macaca mulatta with 30 samples.

Results

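The parotid gland of the rhesus macaque (Macaca mulatta) was compared with the sublingual gland of the same animals by RNA sequencing. The 12 libraries were those whose names give the parotid or the sublingual gland, 6 of each, out of 30 libraries from 5 tissues. Animals 1 to 4 were female and animals 5 and 6 male, and each gave 1 piece of each gland, so the animals are the replicates and the comparison is within animals. No treatment, genotype or age is given for either group. The pieces were bulk frozen tissue, and the parotid library name of animal 3 gives the right gland while the other 5 give the left. In bulk tissue fewer cells of a type and less RNA per cell cannot be told apart.

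Salivary glands secrete from acini, small sacs of epithelial cells that drain into ducts. Serous acini, which make up the parotid gland, release a watery fluid rich in enzymes and small proline-rich proteins from dense granules, mainly under sympathetic and cholinergic control. Mucous acini, which dominate the sublingual gland, release mucins, large proteins covered with sugar chains attached to serine and threonine, and are often capped by serous cells. Plasma cells in the stroma make immunoglobulin A, which the epithelium carries into saliva.

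Values are TPM, in which each gene is a share of a fixed total corrected for transcript length, so levels of different genes can be compared and a rise of some genes lowers all others. The median log2 fold change of all 10826 tested genes, parotid over sublingual, was -0.79 in TPM as deposited, close to 0 after each library was multiplied by 1 trimmed-mean factor, and 0.25 relative to all but the 100 most abundant genes. These factors were 0.893 to 1.90 in parotid and 0.532 to 1.18 in sublingual gland. Fold changes below are on log2(scaled TPM + 1) unless they are said to be as deposited, which understates changes of low genes. TPM levels are as deposited. The test was limma with animal as a block, with p-values adjusted over all tested genes by the Benjamini-Hochberg method and a threshold of 0.05. Higher and lower mean parotid relative to sublingual gland, and animals are paired throughout (n = 6).

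Some pieces held tissue other than gland. The 37 skeletal muscle markers in the table summed to 167451 TPM in the parotid piece of animal 6, while the remaining 5 parotid pieces held 155 to 12985 TPM. In sublingual gland they reached 43738 TPM in animal 5 and 17588 TPM in animal 1, and stayed at or below 829 TPM in the other 4. The 20 markers of oral squamous epithelium summed to 127493 TPM in the sublingual piece of animal 4 and 45462 TPM in that of animal 1, against at most 559.6 TPM in every other piece of either gland. KRT13, a keratin of that epithelium, reached 34537 and 10694 TPM in these pieces, and 1.28 and 0.778 TPM in those of animals 3 and 6. The sublingual piece of animal 5 was the only one of the 12 libraries whose mean correlation with the other gland (0.851) was above that with its own (0.840). The part of these tissues in the results was not tested. Counts over all genes are given without each animal, without animals 4 and 6 and without animals 1, 4 and 6. Most lists are counted without animal 6 only, a few also without animals 4 or 1, and none without animal 5.

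Parotid RNA was dominated by a few secreted genes. The 10 most abundant genes took 38.8 to 81.4% of all TPM in parotid (mean 72.2% ± 16.6, SD, n = 6) and 18.7 to 52.5% in sublingual gland (37.0% ± 13.8). Parotid had the higher share in 5 of 6 animals, by 35.2 percentage points on average. Flipping signs over the 6 pairs (exact permutation, two-sided) gave p = 0.0625, where no p below 0.03125 is possible. The exception was animal 6, whose parotid piece held muscle. Without it the difference was 44.9 points in 5 of 5 animals, with an exact p = 0.0625, the smallest that 5 pairs allow.

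**Figure D1:**
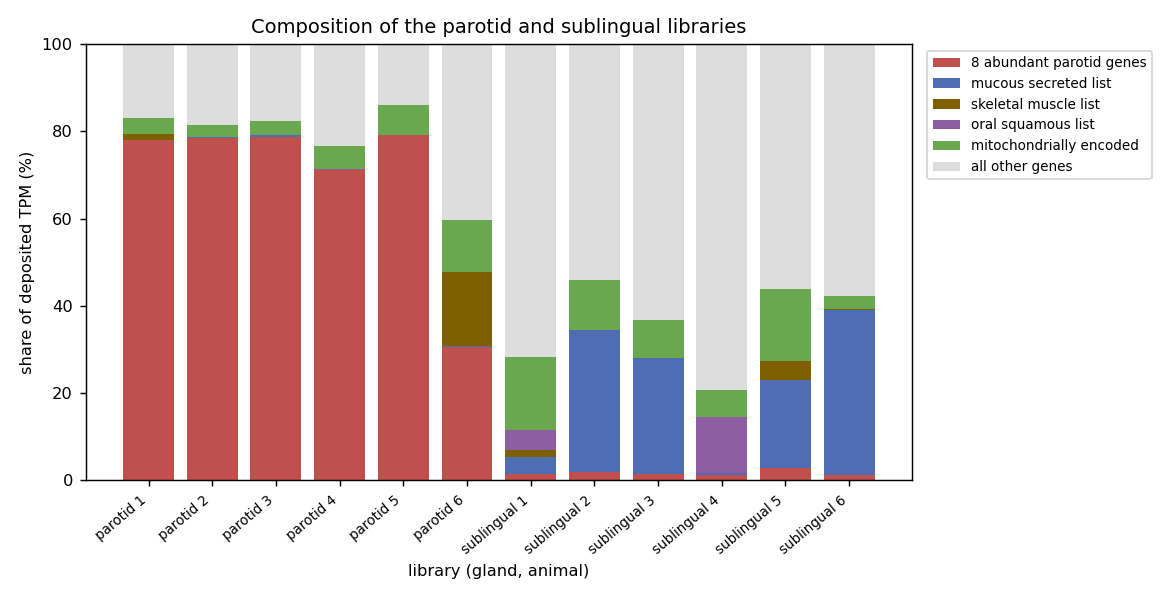
Share of deposited TPM (vertical axis, %) taken in each of the 12 libraries (horizontal axis) by 8 abundant genes called higher in parotid, 3 gene lists and the mitochondrially encoded genes, stacked to 100%. The 8 genes take 71.0 to 79.0% of 5 parotid libraries and 30.6% of that of animal 6, while the mucous list takes 0.501 to 37.9% of the sublingual libraries.

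8 genes that were called higher in parotid and had a mean above 10000 TPM there made up most of this share. They were LOC114670789, LOC722360, LOC695018, LOC107000764, SMR3B, LOC107000768, BPIFA2 and LOC713027. COX2, with a mean of 10983 TPM in parotid, was not called and is left out. Being called higher was part of the choice, so a lower sublingual share of these genes is no separate result. Together the 8 genes held 30.6 to 79.0% of parotid TPM (median 78.2%) and 1.19 to 2.90% of sublingual TPM (median 1.37%). The same 8 genes held 1.45 to 2.05% of TPM in the 6 liver libraries and 1.01 to 1.96% in the pancreas libraries. In the submandibular gland, the third large salivary gland, their share was 0.92 to 67.6% (median 59.6%). For each gene the sublingual mean was between 1.13 and 5.65% of the parotid mean, and the liver mean between 1.46 and 4.58%. The highest sublingual share, 2.90% in animal 5, was above the range of liver, a tissue that secretes no saliva, and the sublingual median was below it. Whether the sublingual values of these genes come from sublingual cells was not tested.

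LOC114670789 was the most abundant gene of 4 parotid libraries. It stood at 87639.5 to 279863 TPM (median 188606) in parotid and 2749 to 4976 TPM (median 3845) in sublingual gland, with liver at 3854 to 6359 TPM. The groups did not overlap in any animal (log2 fold change 6.49, SE 0.52, limma adjusted p = 0.000833). LOC695018, at 60074 to 149832 TPM (median 93001) in parotid and 665 to 1902 TPM (median 1306) in sublingual gland, and LOC107000768, at 32497 to 61138 TPM (median 48641) and 295 to 756 TPM (median 591), did not overlap either (log2 fold changes 7.40 and 7.53, limma adjusted p = 0.000261 and 0.000188). In the current RefSeq table of macaque genes these 3 genes are neighbours, between the taste receptor gene TAS2R42 and the transcription factor gene ETV6.

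LOC722360 and LOC107000764 lie on either side of another taste receptor gene, TAS2R13, in that table. LOC722360 was at 48970.0 to 219049 TPM (median 111801) in parotid and 2042 to 3217 TPM (median 2399) in sublingual gland (6.54, SE 0.53, adjusted p = 0.000833 in limma). LOC107000764 was uneven between animals. In parotid, animals 1 and 6 had 3251 and 1162 TPM and the remaining 4 had 108559 to 133374 TPM, against 665 to 3414 TPM (median 1655) in sublingual gland. The 2 low animals reached into the sublingual range, and LOC107000764 was higher in parotid in 5 of 6 animals (log2 fold change 5.22, SE 0.99, limma adjusted p = 0.0198). Its call was lost when 1 of 4 animals was left out (adjusted p = 0.0533 to 0.0721 without animals 1, 2, 3 or 4). These 5 genes carry identifiers in place of names. How reads of near-identical copies were divided among such genes is not stated, so single values are uncertain.

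SMR3B, which encodes a small proline-rich secreted peptide, stood at 21108 to 196684 TPM (median 63471) in parotid and 1287 to 7819 TPM (median 3256) in sublingual gland (log2 fold change 5.43, SE 0.60, limma adjusted p = 0.00251). BPIFA2, the parotid secretory protein that binds bacterial lipopolysaccharide, stood at 19294 to 74909 TPM (median 30807) and 644 to 6174 TPM (median 1754) (5.36, SE 0.58, adjusted p = 0.00218). In both genes the groups did not overlap, and the highest sublingual value was that of animal 5, at 7819 and 6174 TPM, above the liver ranges of 2670.3 to 4269 TPM and 1306 to 2758 TPM. CST5, the salivary cystatin D that inhibits cysteine proteases, stood at 2795 to 7180.0 TPM (median 4201) in parotid and 97.1 to 239 TPM (median 163) in sublingual gland (5.76, SE 0.42, adjusted p = 0.00067). All 6 parotid values of CST5 lay above all 6 sublingual values, and liver was at 175 to 237 TPM. Each of these 3 calls held with any 1 animal left out.

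**Figure D2:**
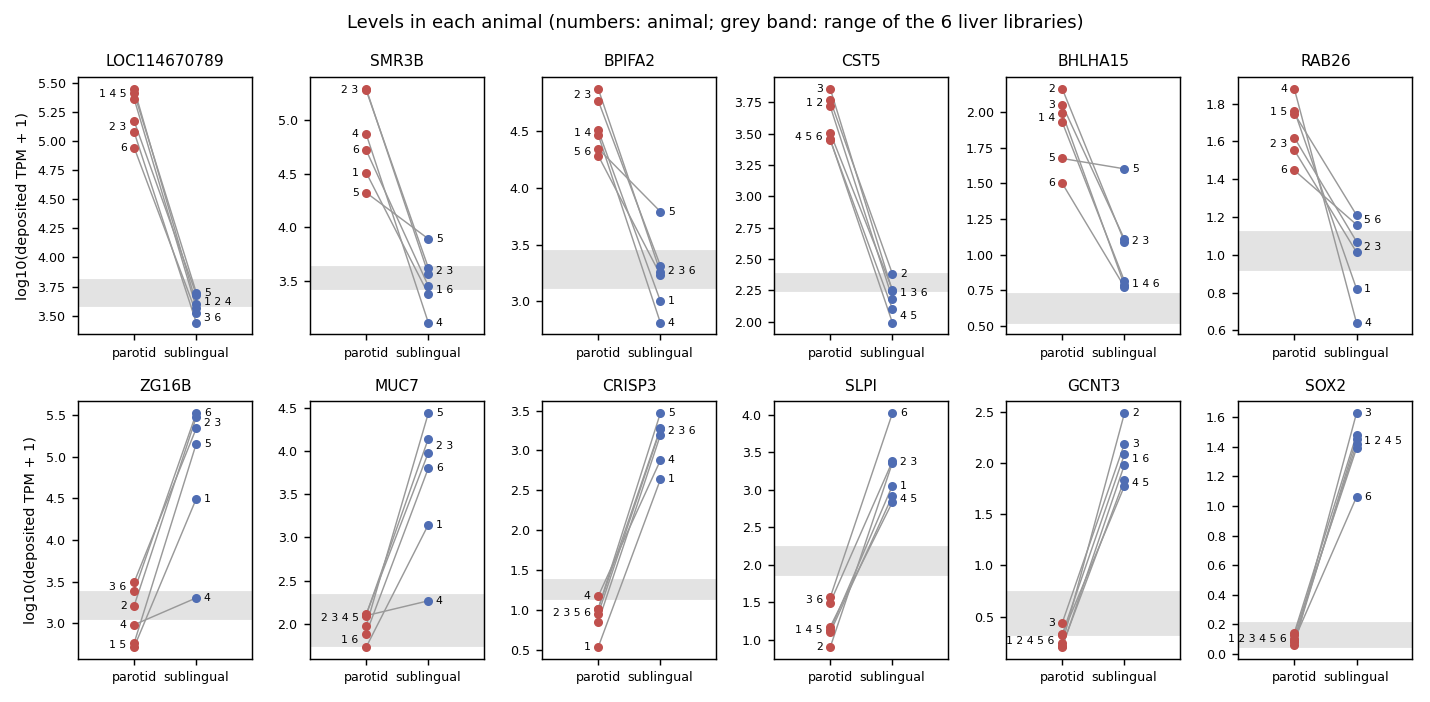
Deposited TPM of 12 genes in each animal (vertical axes, log10 of TPM + 1), parotid on the left and sublingual gland on the right of each panel, with lines joining the glands of 1 animal, numbers giving the animal and a grey band for the range of the 6 liver libraries. The top row shows genes higher in parotid, with the sublingual gland of animal 5 often nearest to parotid, and the bottom row genes lower in parotid, with ZG16B and MUC7 low in the sublingual gland of animal 4.

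Across the 10826 genes, 822 passed the threshold (7.59%), of which 348 were higher in parotid (3.21%) and 474 lower (4.38%). At an unadjusted p under 0.05 there were 1209 and 1611. The split turned on the scaling. In TPM as deposited 82 genes were higher (0.757%) and 3687 lower (34.1%), while quantile normalisation gave 453 and 398, and TPM relative to all but the 100 most abundant genes gave 632 and 267. Of the 348 genes called higher, 81 were called in TPM as deposited, and all 474 called lower were. Counts of list members as deposited, given below, are to be read beside the shares of 0.757% and 34.1%.

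The number of calls also turned on single animals. Leaving out animal 1, 2, 3, 4, 5 or 6 gave 277, 211, 236, 432, 1336 and 1021 genes in limma. Without animal 6, whose parotid piece held muscle, 480 genes were higher (4.43%) and 541 lower (5%), and 305 and 370 of these were among the main calls. Without animals 4 and 6 the numbers were 178 and 221, and without animals 1, 4 and 6 they were 111 and 227. Of the 822 genes, 189 kept their call and direction in all 6 fits that left out 1 animal, 79 higher and 110 lower, and 168 of these were also called in TPM as deposited.

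**Figure D3:**
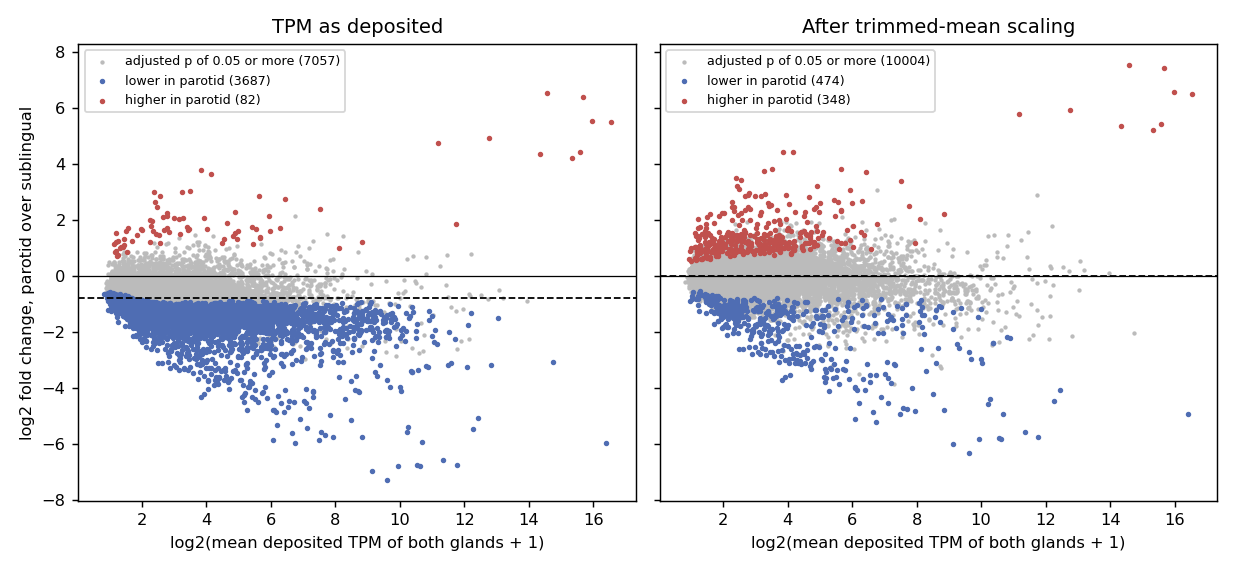
Log2 fold change of parotid over sublingual gland (vertical axes) against log2 of the mean deposited TPM of both glands + 1 (horizontal axes) for 10826 genes, in TPM as deposited (left) and after trimmed-mean scaling (right). The dashed line is the median of all genes, -0.79 on the left and close to 0 on the right, and coloured points have an adjusted p under 0.05 in limma.

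**Figure D4:**
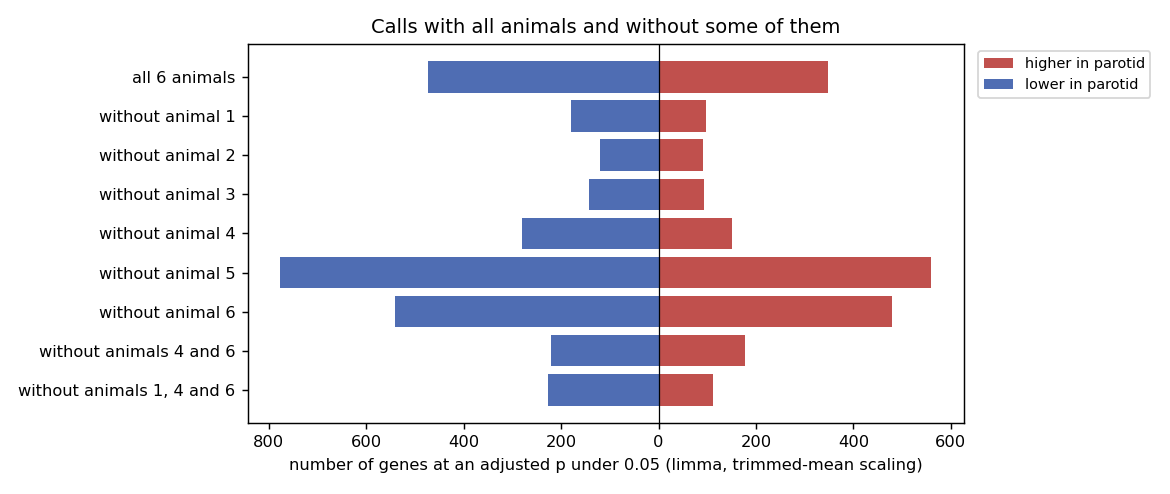
Number of genes higher (right of 0) and lower (left of 0) in parotid at an adjusted p under 0.05, after trimmed-mean scaling, with all 6 animals and without some of them. The counts run from 91 higher and 120 lower without animal 2 to 560 higher and 776 lower without animal 5.

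Among proteins of serous saliva the difference lay in a few genes. Of 34 listed genes, 21 were in the table and 20 were tested, of which 6 were higher in parotid (SMR3B, BPIFA2, CST5, PRR27, PRR4 and DNASE1) and 0 lower, with a median log2 fold change of 0.71 against close to 0 for all genes. Over all genes 3.21% were higher and 4.38% lower. The other 14 did not pass. As deposited, 6 were higher and 4 lower with a median of -0.02, where 0.757% and 34.1% of all genes were, and without animal 6 there were 8 and 0 with a median of 1.07. Without animals 4 and 6 the counts were 6 higher and 2 lower, and without animals 1, 4 and 6 they were 5 and 1. The filter of at least 1 TPM in 6 libraries removed ODAM alone among the 21, at most 0.448 TPM in parotid and 35.2 TPM in sublingual gland.

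PRR27, a proline-rich secreted protein, was at 26.2 to 240.4 TPM (median 156) in parotid, where the lowest value was that of animal 6, and at 2.76 to 59 TPM (median 23.4) in sublingual gland (log2 fold change 3.71, SE 0.64, limma adjusted p = 0.0152). The glands overlapped through animal 6, and the call was lost when 1 animal was left out (adjusted p = 0.0589 without animal 2). PRR4, another proline-rich protein, was at 6.46 to 309.5 TPM (median 34.7) in parotid, with 197 and 309.5 TPM in animals 1 and 5 and at most 39.4 TPM in the others, against 3.48 to 85.5 TPM (median 7.86) in sublingual gland (3.06, SE 0.75, adjusted p = 0.0435). Its call was lost in 5 of the 6 fits with 1 animal left out (adjusted p = 0.0698 to 0.114 without animals 1, 2, 3, 4 or 5). DNASE1, a secreted DNA-digesting enzyme, was at 2.05 to 23.5 TPM (median 8.47) and 1.92 to 7.19 TPM (median 4.81) with overlapping groups (1.55, SE 0.39, adjusted p = 0.0489). In TPM as deposited DNASE1 did not pass (adjusted p = 0.195), nor after quantile normalisation (adjusted p = 0.0511) or in 5 of the leave-outs (adjusted p = 0.0594 to 0.149 without animals 1, 3, 4, 5 or 6).

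Other serous proteins were abundant in both glands. PIP, prolactin-induced protein, was at 1184 to 5985 TPM (median 2757) in parotid and 493 to 109280.0 TPM (median 46729) in sublingual gland, where animal 4 was lowest (log2 fold change -2.04, SE 1.07, limma adjusted p = 0.261). LYZ, lysozyme, was at 190.5 to 2830.0 TPM (median 1154) and 957 to 31311 TPM (median 9818) (-2.16, SE 0.76, adjusted p = 0.121). Both passed as lower in parotid in TPM as deposited (adjusted p = 0.02 and 0.00514), and LYZ also passed without animal 4 (adjusted p = 0.0491). SMR3A, the paralog of SMR3B, went the other way from it in its medians, at 39.3 to 127 TPM (median 77.4) in parotid and 19.3 to 8305 TPM (median 2203) in sublingual gland (-2.35, SE 1.00, adjusted p = 0.181). It was lower in parotid in 5 of 6 animals, and passed in TPM as deposited alone among the scalings (adjusted p = 0.0146). LPO, salivary peroxidase, had overlapping groups, at 51.4 to 221 TPM (median 125) and 16.1 to 1158 TPM (median 387) (-0.12, SE 0.74, adjusted p = 0.93), and its direction changed with the scaling and with the animals left out.

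CA6, the carbonic anhydrase secreted into saliva, was at 2358 to 7984 TPM (median 3498) in parotid and 157 to 4295 TPM (median 2210.2) in sublingual gland. It was higher in parotid in 5 of 6 animals and did not pass (log2 fold change 2.88, SE 0.81, limma adjusted p = 0.068), but passed without animal 6 (3.63, adjusted p = 0.0186), in TPM as deposited (adjusted p = 0.0467) and relative to all but the top 100 genes (adjusted p = 0.0496). The sublingual values of animals 3, 5 and 6 lay in the parotid range and those of animals 1 and 4 were the lowest. DNASE2B, an acid DNA-digesting enzyme, was at 56.6 to 280.4 TPM (median 145) and 2.69 to 153 TPM (median 38.5) (3.07, SE 0.94, adjusted p = 0.0857) and passed without animal 6 (4.04, adjusted p = 0.0155).

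Of the 3 amylase genes LOC713027 passed, and AMY2B and LOC114669773 did not. AMY2B was at 134 to 309 TPM (median 174) in parotid and 23.2 to 167 TPM (median 103) in sublingual gland. As deposited the glands overlapped through animals 4 and 5. In scaled values all 6 animals had more AMY2B in parotid with no overlap, but the test did not pass (log2 fold change 1.98, SE 0.55, limma adjusted p = 0.0633). It passed without animal 6 (2.34, adjusted p = 0.0396), after quantile normalisation (adjusted p = 0.0342) and relative to all but the top 100 genes (adjusted p = 0.0291), and not in TPM as deposited (0.98, adjusted p = 0.126). Its neighbour LOC713027 was far more abundant, at 3733 to 31844 TPM (median 10948) in parotid and 217 to 1034 TPM (median 316) in sublingual gland (5.91, SE 0.56, adjusted p = 0.00131), with no overlap. LOC114669773, the gene between them in the RefSeq table, was at 81.1 to 473 TPM (median 307) and 66.3 to 783 TPM (median 243) and did not pass (1.25, SE 0.41, adjusted p = 0.0996); it passed without animal 6 (adjusted p = 0.0496), after quantile normalisation (adjusted p = 0.0216) and relative to all but the top 100 genes (adjusted p = 0.0414). How reads were divided among these similar genes is not stated.

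Most tested genes of mucous secretion were lower in parotid. Of 25 listed, 23 were in the table and 16 tested, and 11 of these were lower and 0 higher, with a median log2 fold change of -3.57, where 4.38% of all genes were lower. The other 5 did not pass. TFF1, FCGBP and LTF, below 1 TPM in every parotid library, passed the filter only through sublingual gland. As deposited 15 were lower and 0 higher. Without animal 6 there were 11 lower, without animals 4 and 6 there were 9, and without animals 1, 4 and 6 there were 11. The list summed to 959 to 3650 TPM in parotid. In sublingual gland it summed to 5008 TPM in animal 4, 38472 TPM in animal 1 and 200955 to 378673 TPM in the other 4. The sublingual pieces of animals 4 and 1 were also those with the squamous markers.

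ZG16B, a lectin-like secreted protein, was the most abundant gene of 4 sublingual libraries. It was at 2016 to 332616 TPM (median 181632) in sublingual gland and 516 to 3108 TPM (median 1290.0) in parotid, and liver was at 1124 to 2378 TPM. Animal 4 had 2016 TPM in sublingual gland, inside the parotid range, and ZG16B was lower in parotid in 6 of 6 animals (log2 fold change -4.94, SE 0.85, limma adjusted p = 0.0152). The call was lost in 1 leave-out (adjusted p = 0.0607 without animal 2). MUC7, the small secreted mucin of saliva, was at 184 to 27189 TPM (median 7919) in sublingual gland and 52.9 to 128 TPM (median 109) in parotid, and was lower in parotid in 5 of 6 animals (-4.45, SE 0.84, adjusted p = 0.0192). Its exception was animal 4, with 184 TPM in sublingual and 123 TPM in parotid gland before scaling, and its call was lost in 3 of the leave-outs (adjusted p = 0.0525 to 0.0707 without animals 1, 2 or 3).

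Among the gel-forming mucins, MUC19 was at 1.03 to 391 TPM (median 13.8) in sublingual gland, with its highest value in animal 5, and at 0.289 to 1.47 TPM (median 0.642) in parotid. It was lower in parotid in 6 of 6 animals without passing (log2 fold change -2.49, SE 0.71, limma adjusted p = 0.0712). MUC5B did not reach the filter for testing. It was at 0.128 to 65.4 TPM (median 13.6) in sublingual gland and 0.0117 to 0.223 TPM (median 0.0476) in parotid, with the highest value in animal 2 and the lowest sublingual value, 0.128 TPM, in animal 6. MUC5AC, MUC2 and MUC6, at most 1.42, 2.48 and 0.189 TPM in any sublingual library, were not tested either.

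CRISP3, a cysteine-rich secretory protein, had the largest fall among the genes with a symbol that were eligible for naming. It was at 433 to 2929 TPM (median 1698) in sublingual gland and 2.47 to 14 TPM (median 8.76) in parotid, with no overlap (log2 fold change -6.33, SE 0.39, limma adjusted p = 0.000261). C4H6orf58 was at 41 to 7106 TPM (median 3124) and 1.12 to 21.2 TPM (median 12.4) (-5.83, SE 0.84, adjusted p = 0.00749), and the scaled groups overlapped through the sublingual piece of animal 4. SLPI, the leukocyte protease inhibitor of mucosal fluids, was at 681 to 10463 TPM (median 1708) and 6.93 to 35.6 TPM (median 13.1) with no overlap (-5.78, SE 0.57, adjusted p = 0.00163). These 3 calls held with any 1 animal left out and under every scaling tried.

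Further secreted proteins of the list passed at lower levels. BPIFB1, a relative of BPIFA2, was at 364 to 19758 TPM (median 12262) in sublingual gland and 101 to 225 TPM (median 157) in parotid (log2 fold change -4.06, SE 0.81, limma adjusted p = 0.024), so that 2 members of 1 protein family were each high in 1 gland. BPIFB1 did not pass after quantile normalisation (adjusted p = 0.0516) or in 2 leave-outs (adjusted p = 0.0748 to 0.0859 without animals 2 or 3). BPIFB2 was at 9.15 to 1216 TPM (median 114) and 0.565 to 5.1 TPM (median 2.61) (-3.65, SE 0.58, adjusted p = 0.0111). AGR2, the disulfide isomerase needed for mucin assembly, was at 24.4 to 656 TPM (median 65.3) and 1.05 to 5.75 TPM (median 2.13) (-3.68, SE 0.37, adjusted p = 0.00167). WFDC2, a secreted protein of the protease inhibitor family of SLPI, was at 624 to 2388 TPM (median 2218) and 68.9 to 258 TPM (median 90.2), with animal 4 lowest in sublingual and highest in parotid gland (-3.11, SE 0.52, adjusted p = 0.0141). FCGBP, which binds mucus, and TFF1, a trefoil peptide, had log2 fold changes of -3.06 and -2.66 (limma adjusted p = 0.0137 and 0.0148). Calls were lost for WFDC2 (adjusted p = 0.0513 to 0.0567 without animals 1 or 2), FCGBP (adjusted p = 0.056 without animal 2) and TFF1 (adjusted p = 0.0513 without animal 1).

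The remaining tested members of the list did not pass. DMBT1, a scavenger receptor protein of saliva, was at 2.01 to 341 TPM (median 112) in sublingual gland and 1.06 to 2.98 TPM (median 1.52) in parotid (log2 fold change -3.49, SE 1.00, limma adjusted p = 0.0702), with animal 1 at 2.01 TPM in sublingual gland, and passed without that animal (adjusted p = 0.0331). TFF3 had -2.45 (adjusted p = 0.0613) and LTF, lactoferrin, -0.80 (adjusted p = 0.238). ZG16, a zymogen granule protein, had a positive value (0.95, adjusted p = 0.188) that was -0.05 as deposited.

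**Figure D5:**
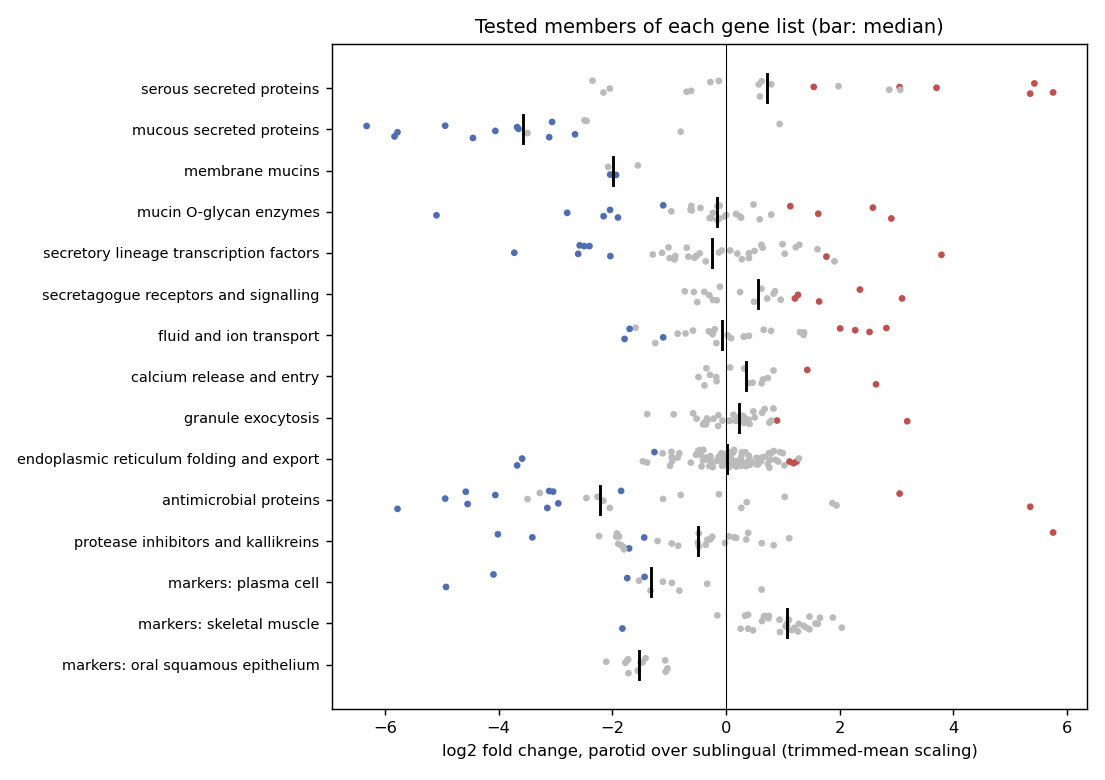
Log2 fold change of parotid over sublingual gland after trimmed-mean scaling (horizontal axis) for each tested member of 15 gene lists (rows), with a bar at each list's median. Red and blue points are higher and lower in parotid at an adjusted p under 0.05 in limma and grey points did not pass; the mucous list has its median at -3.57 and the serous list at 0.71.

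The enzymes listed as building mucin-type sugar chains, which include FUT8 of N-linked chains among the higher ones, split in direction. Of 30 tested, 6 were lower and 4 higher in parotid, with a median log2 fold change of -0.15, where 4.38% and 3.21% of all genes were. As deposited 14 were lower and 2 higher, and without animal 6 there were again 6 and 4. GCNT3, which branches the chains, was at 58.5 to 304 TPM (median 108) in sublingual gland and 0.602 to 1.77 TPM (median 0.923) in parotid with no overlap (log2 fold change -5.10, SE 0.39, limma adjusted p = 0.000733). ST3GAL4, a sialyltransferase, was at 22.6 to 51.7 TPM (median 32.9) and 1.07 to 4.22 TPM (median 1.74) (-2.79, SE 0.30, adjusted p = 0.00218), and PAPSS2, which makes the sulfate donor, at 3.9 to 18.3 TPM (median 12.9) and 0.519 to 0.822 TPM (median 0.627) (-2.15, SE 0.18, adjusted p = 0.000964). ST6GALNAC1, another sialyltransferase, GALNT6, which starts the chains, and GCNT1, another branching enzyme, were also lower (log2 fold changes -2.04, -1.90 and -1.10, adjusted p = 0.00169, 0.00213 and 0.00857). All 6 of these calls held with any 1 animal left out. PAPSS2, below 1 TPM in every parotid library, passed the filter only through sublingual gland.

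Of the enzymes higher in parotid, B4GALNT3, which adds N-acetylgalactosamine, was at 6.52 to 18 TPM (median 15.9) in parotid and 0.766 to 4.15 TPM (median 3.18) in sublingual gland with no overlap (log2 fold change 2.91, SE 0.25, limma adjusted p = 0.000964). ST3GAL1, which caps short chains with sialic acid, was at 6.5 to 21.1 TPM (median 15.9) and 0.82 to 11.9 TPM (median 3.57) (2.59, SE 0.37, adjusted p = 0.00747), and its highest sublingual value was that of animal 5. ST6GALNAC2 (1.63, adjusted p = 0.0466) and FUT8 (1.13, adjusted p = 0.036), a fucosyltransferase acting on N-linked chains, did not pass as deposited (adjusted p = 0.207 and 0.33), and leaving out single animals ended both calls (adjusted p = 0.0637 to 0.147 without animals 1, 2, 3, 4 or 5 for ST6GALNAC2 and adjusted p = 0.0924 to 0.116 without animals 1, 2, 3 or 4 for FUT8). Of 4 tested membrane mucins, MUC20 and MUC15 were lower (log2 fold changes -2.04 and -1.93, limma adjusted p = 0.00272 and 0.011) and MUC1 and MUC21 did not pass. Over all genes 4.38% were lower.

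BHLHA15, the transcription factor MIST1 of secretory cells, and PAX9, a developmental factor, were the 2 higher of 36 tested transcription factors, of which 6 were lower, with a median log2 fold change of -0.24. The shares over all genes were 3.21% higher and 4.38% lower. As deposited 1 factor was higher and 15 lower, and without animal 6 there were 6 higher and 8 lower with a median of -0.07. BHLHA15 was at 30.6 to 145 TPM (median 90.6) in parotid and 4.93 to 39 TPM (median 8.41) in sublingual gland (log2 fold change 3.79, SE 0.46, limma adjusted p = 0.00391). In scaled values the groups did not overlap, and before scaling the parotid value of animal 5, 46.3 TPM, and its sublingual value, 39 TPM, were close. PAX9 was at 10.1 to 71.7 TPM (median 32.9) and 2.93 to 44.4 TPM (median 23.1) (1.77, SE 0.42, adjusted p = 0.04) and did not pass in TPM as deposited (adjusted p = 0.188) or in 3 leave-outs (adjusted p = 0.0835 to 0.118 without animals 1, 2 or 3). SOX10, a factor of acinar and myoepithelial cells, was at 13 to 57.4 TPM (median 27.8) and 1.78 to 41.7 TPM (median 18.5) (1.91, SE 0.49, adjusted p = 0.0507), and passed without animal 6 (adjusted p = 0.0346).

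Of the 6 factors lower in parotid, SOX2, a factor of salivary progenitors, was at 10.5 to 41.4 TPM (median 26.4) in sublingual gland and 0.146 to 0.392 TPM (median 0.258) in parotid (log2 fold change -3.73, SE 0.20, limma adjusted p = 0.000188). NKX2-3, a homeobox factor, was at 4 to 14.7 TPM (median 9.34) and 0.0669 to 0.139 TPM (median 0.101) (-2.60, SE 0.24, adjusted p = 0.00125), and BARX1, another homeobox factor, at 3.75 to 16.6 TPM (median 7.74) and 0.234 to 0.767 TPM (median 0.382) (-2.03, SE 0.22, adjusted p = 0.00236). All 3 were below 1 TPM in every parotid library, so they passed the filter only through the 6 sublingual libraries. Their deposited groups could therefore not overlap, and the direction in deposited values was fixed by the filter. ELF3, an epithelial factor, was at 24.9 to 329 TPM (median 53.2) and 3.08 to 14.4 TPM (median 5.19) (-2.57, SE 0.36, adjusted p = 0.00605), KLF5 at 12.4 to 148 TPM (median 17.6) and 1.68 to 3.42 TPM (median 2.2) (-2.49, SE 0.50, adjusted p = 0.0239), and HES1, a Notch target, at 18.4 to 180.3 TPM (median 34.6) and 1.46 to 19.8 TPM (median 3.12) (-2.40, SE 0.48, adjusted p = 0.0242). The sublingual values of ELF3, KLF5 and HES1 were highest in animals 1 and 4, the pieces with squamous markers, and lower in the other 4. The calls of KLF5 (adjusted p = 0.0536 to 0.0705 without animals 1, 2 or 4) and HES1 (adjusted p = 0.0645 to 0.0865 without animals 1, 2, 3 or 4) were lost in leave-outs, and that of ELF3 was not. XBP1, SPDEF and CREB3L1, factors of secretory cells, did not pass (log2 fold changes -0.35, 0.41 and -0.99, adjusted p = 0.671, 0.67 and 0.226), and XBP1 and CREB3L1 passed as lower in TPM as deposited (adjusted p = 0.0453 and 0.0227).

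Stimulation of secretion was represented by 20 tested receptors and signalling genes, of which 5 were higher in parotid and 0 lower, with a median log2 fold change of 0.56, where 3.21% of all genes were higher. This split is that of the main fit, and it also held after quantile normalisation. In scaled values the median difference of the list was above 0 in 5 of 6 animals. As deposited 2 were higher and 4 lower with a median of -0.22, and without animal 6 there were 5 higher and 2 lower. ADRB1, the beta adrenergic receptor of acinar cells, was at 4.79 to 14.2 TPM (median 7.42) in parotid and 0.28 to 1.73 TPM (median 0.561) in sublingual gland with no overlap (log2 fold change 3.10, SE 0.28, limma adjusted p = 0.00113). PPP1R1B, a phosphatase inhibitor switched on by cyclic AMP signalling, was at 38.9 to 103 TPM (median 74.1) and 15.8 to 44.6 TPM (median 26.2) (2.36, SE 0.36, adjusted p = 0.00864). Both calls held with any 1 animal left out and as deposited. P2RX4, an ATP-gated channel, ADCY6, an adenylyl cyclase, and PLCB1, a phospholipase C, had 1.64, 1.27 and 1.21 (adjusted p = 0.0377, 0.0164 and 0.023) and did not pass as deposited (adjusted p = 0.159, 0.352 and 0.0827). Leave-outs ended these calls (adjusted p = 0.0565 to 0.124 without animals 1, 2, 3, 4 or 5 for P2RX4, adjusted p = 0.0603 without animal 1 for ADCY6, adjusted p = 0.0597 to 0.0831 without animals 1, 2, 3 or 4 for PLCB1). The muscarinic receptor CHRM3 did not pass (0.62, adjusted p = 0.164), and CHRM1, not tested, was at 0.381 to 1.47 TPM (median 0.724) in parotid and 0.233 to 15.9 TPM (median 2.65) in sublingual gland.

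In fluid and ion transport 4 of 28 tested genes were higher and 3 lower, with a median of -0.07, where 3.21% and 4.38% of all genes were. As deposited 2 were higher and 11 lower, where 0.757% and 34.1% of all genes were. Without animal 6 there were again 4 and 3. ANO1, the calcium-activated chloride channel of the apical membrane, was at 8.01 to 21.3 TPM (median 17.5) in parotid and 1.1 to 11.9 TPM (median 4.34) in sublingual gland (log2 fold change 2.53, SE 0.29, limma adjusted p = 0.00291). In scaled values its groups did not overlap, and its call held with any 1 animal left out.

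CA2, a cytosolic carbonic anhydrase, and SLC20A2, a phosphate transporter, were higher (2.28 and 2.01, adjusted p = 0.0228 and 0.0263) and did not pass as deposited (adjusted p = 0.0557 and 0.0964), and leave-outs ended both (adjusted p = 0.0635 to 0.0761 without animals 1, 2, 3 or 4 for CA2 and adjusted p = 0.0737 to 0.0925 without animals 1, 2 or 3 for SLC20A2). Lower in parotid were KCNK1, a potassium channel (-1.70, SE 0.18, adjusted p = 0.00213), SCNN1A, a subunit of the sodium channel of ducts (-1.78, SE 0.32, adjusted p = 0.0174), and SLC12A2, the chloride cotransporter of acinar cells (-1.10, SE 0.25, adjusted p = 0.036). SCNN1A was highest in the sublingual pieces of animals 1 and 4, at 85.6 and 91 TPM, and from 4.37 to 42 TPM in the remaining pieces. The call of SCNN1A (adjusted p = 0.0688 without animal 2) and that of SLC12A2 (adjusted p = 0.0551 to 0.116 without animals 1, 2, 3 or 4) were lost in leave-outs. AQP5, the water channel of acini, was at 60.2 to 159 TPM (median 124) in parotid and 19.8 to 313 TPM (median 221) in sublingual gland and did not pass (0.79, SE 0.63, adjusted p = 0.452).

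Of 16 calcium release and entry genes, 2 were higher and 0 lower, where 3.21% of all genes were higher. As deposited 1 was higher and 4 lower, and without animal 6 there were 3 and 0. ATP2B2, a calcium pump of the plasma membrane, was at 4.27 to 12.3 TPM (median 5.86) in parotid and 0.113 to 1.93 TPM (median 0.916) in sublingual gland with no overlap (log2 fold change 2.64, SE 0.20, limma adjusted p = 0.000733), and its highest value was that of the muscle-holding piece of animal 6. STIM1, the calcium sensor of the endoplasmic reticulum, also expressed in muscle, was at 7.24 to 20.4 TPM (median 12.9) and 2.8 to 25.5 TPM (median 8.39) (1.43, SE 0.29, adjusted p = 0.0263), and did not pass as deposited (adjusted p = 0.393) or in 4 leave-outs (adjusted p = 0.0635 to 0.0925 without animals 1, 2, 3 or 4). Without animal 6 their log2 fold changes were 2.54 and 1.28 (adjusted p = 0.000884 and 0.0419).

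Of 37 tested genes of granule exocytosis, 2 were higher and 0 lower, near the share over all genes of 3.21% higher. As deposited 1 was higher and 10 lower. RAB26, a small GTPase of secretory granules, was at 27 to 74.4 TPM (median 47.7) in parotid and 3.37 to 15.2 TPM (median 10) in sublingual gland with no overlap (log2 fold change 3.19, SE 0.50, limma adjusted p = 0.00958). The call held with any 1 animal left out. The remaining 35 did not pass, among them RAB3D and VAMP8 (log2 fold changes 0.64 and -0.52), proteins of exocrine granules. The list's median was 0.23.

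Of 93 tested genes of the endoplasmic reticulum 3 were higher and 3 lower, close to the shares over all genes of 3.21% and 4.38%, with a median log2 fold change of 0.02. As deposited 0 were higher and 34 lower, and without animal 6 there were 8 and 3. AGR3, a relative of AGR2, was at 7.01 to 48.9 TPM (median 27.7) in sublingual gland and 0.0762 to 0.733 TPM (median 0.343) in parotid (log2 fold change -3.59, SE 0.26, limma adjusted p = 0.00067). Below 1 TPM in every parotid library, AGR3 passed the filter only through sublingual gland. HSP90B1, a chaperone, was at 58 to 167 TPM (median 89.8) and 12.9 to 26 TPM (median 18.5) (-1.26, SE 0.31, adjusted p = 0.0433), and did not pass after quantile normalisation (adjusted p = 0.0743), relative to all but the top 100 genes (adjusted p = 0.124) or in 5 leave-outs (adjusted p = 0.0506 to 0.138 without animals 1, 2, 3, 4 or 5). SRP68, of the signal recognition particle, SURF4, a cargo receptor, and ERN1, a sensor of unfolded proteins, were higher (1.24, 1.19 and 1.12, adjusted p = 0.0125, 0.0477 and 0.0329) and did not pass as deposited (adjusted p = 0.535, 0.697 and 0.29). Leave-outs ended these calls too (adjusted p = 0.0507 to 0.0611 without animals 2 or 3 for SRP68, adjusted p = 0.0534 to 0.139 without animals 1, 2, 3, 4 or 6 for SURF4, adjusted p = 0.0826 to 0.101 without animals 1, 2, 3 or 4 for ERN1).

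Of 26 tested antimicrobial genes 10 were lower in parotid and 2, BPIFA2 and PRR4, higher, with a median log2 fold change of -2.21, where 4.38% of all genes were lower. As deposited 18 were lower and 2 higher, after quantile normalisation 7 and 2, and without animal 6 there were 9 and 3. Of these 12, BPIFA2 and PRR4 also stand in the serous list and ZG16B, SLPI, BPIFB1 and WFDC2 with the mucous list. LCN2, which binds bacterial siderophores, was at 106 to 5565 TPM (median 2084) in sublingual gland and 13.8 to 48.1 TPM (median 24.5) in parotid with no overlap (log2 fold change -4.58, SE 0.85, limma adjusted p = 0.0186). SCGB3A1, a small secretoglobin, was at 21.7 to 288 TPM (median 127) and 0.652 to 3.22 TPM (median 1.09) (-4.55, SE 0.48, adjusted p = 0.00201), and CXCL17, a mucosal chemokine, at 24.6 to 300.5 TPM (median 61.6) and 2 to 7.13 TPM (median 3.79) (-3.04, SE 0.33, adjusted p = 0.00213). DEFB1, a defensin, CCL28, a chemokine of antibody-secreting cells, and RNASE4 had -2.95, -3.14 and -1.84 (adjusted p = 0.0306, 0.0434 and 0.0469). Calls were lost for LCN2 (adjusted p = 0.0611 to 0.0688 without animals 2 or 3), DEFB1 (adjusted p = 0.0765 to 0.105 without animals 1, 2 or 3), CCL28 (adjusted p = 0.0533 to 0.128 without animals 1, 2, 3, 5 or 6) and RNASE4 (adjusted p = 0.0526 to 0.131 without animals 1, 2, 3, 4 or 5).

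Of 32 tested protease inhibitors and kallikreins, CST5 was higher and 4 were lower (16 as deposited, 3 without animal 6). Over all genes 3.21% were higher and 4.38% lower (34.1% lower as deposited). TIMP1, an inhibitor of matrix proteases, was at 60.2 to 1101 TPM (median 373) in sublingual gland and 4.58 to 15.7 TPM (median 7.54) in parotid with no overlap (log2 fold change -4.01, SE 0.58, limma adjusted p = 0.00749). SERPINA3, SERPINB6 and SPINT1, further inhibitors, had -3.41, -1.70 and -1.44 (adjusted p = 0.0289, 0.0302 and 0.039), and leave-outs ended all 3 calls (adjusted p = 0.0516 to 0.0898 without animals 1, 2, 3 or 6 for SERPINA3, adjusted p = 0.066 to 0.0965 without animals 1, 2, 3 or 4 for SERPINB6, adjusted p = 0.0583 to 0.128 without animals 1, 2, 3, 4 or 6 for SPINT1). Of the growth factor genes, 0 of 19 were higher and 2 lower (8 as deposited), beside the same shares over all genes. The 2 were IGFBP2 and BMP4 (log2 fold changes -2.03 and -1.20, limma adjusted p = 0.0463 and 0.0472). Both calls were lost in 5 leave-outs (adjusted p = 0.0608 to 0.147 without animals 1, 2, 3, 4 or 6 for IGFBP2 and adjusted p = 0.0552 to 0.143 without animals 1, 2, 3, 4 or 5 for BMP4).

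Several plasma cell genes were lower in parotid. The 18 markers in the table summed to 105 to 304 TPM in parotid and 349 to 9767 TPM in sublingual gland, and the highest sums were in animals 3 and 5. As deposited these sums did not overlap, and scaled sums were not compared. Of 11 tested, 4 were lower and 0 higher, with a median log2 fold change of -1.33, where 4.38% of all genes were lower. As deposited 9 were lower, where 34.1% of all genes were, and without animal 6 there were 5. JCHAIN, which joins the units of immunoglobulin A, was at 173 to 8866 TPM (median 979.5) in sublingual gland and 11.2 to 30.5 TPM (median 26.7) in parotid (log2 fold change -4.93, SE 0.63, limma adjusted p = 0.00444). MZB1, a chaperone of antibody assembly, was at 7.34 to 201 TPM (median 71.6) and 0.0569 to 2.78 TPM (median 0.648) (-4.09, SE 0.51, adjusted p = 0.00435). CD79A and PIM2 had -1.74 and -1.43 (adjusted p = 0.00448 and 0.0208), and that of PIM2 was lost in leave-outs (adjusted p = 0.0583 to 0.0756 without animals 2 or 3). PIGR, the epithelial receptor that carries this antibody into saliva, was looked at after the values were seen. It was at 13.6 to 562 TPM (median 136) in sublingual gland and 1.25 to 8.95 TPM (median 3.71) in parotid (-3.54, SE 0.63, adjusted p = 0.0165), and its call too was lost in leave-outs (adjusted p = 0.0547 to 0.0602 without animals 2 or 3).

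The criteria for naming a large change were met by 12 genes higher and 79 lower in parotid. Among all 10826 tested genes, 348 were called higher (3.21%) and 474 lower (4.38%). The criteria ask for at least 100 TPM as deposited in the higher gland, and deposited values ran lower in parotid (median -0.79 in log2). How many genes reached that level in each gland was not counted. The part of this cut in the split of 12 and 79 was not tested. SLC31A2, a copper transporter family member, was at 56.4 to 204 TPM (median 101) in parotid and 18.2 to 53.3 TPM (median 33.9) in sublingual gland with no overlap in scaled values (log2 fold change 2.68, SE 0.41, limma adjusted p = 0.00933), and its call held with any 1 animal left out. TESC, a calcium-binding protein, was at 203 to 348 TPM (median 323) and 10.4 to 118 TPM (median 91.3) with no overlap (3.38, SE 0.60, adjusted p = 0.0164), and its call was lost in leave-outs (adjusted p = 0.0544 to 0.0564 without animals 1, 2 or 3). NDRG2, a stress-response protein, was at 329 to 906 TPM (median 648) and 102 to 495 TPM (median 298) (2.21, SE 0.41, adjusted p = 0.0192), and CD74, the chaperone of class II antigen presentation, at 79.9 to 718 TPM (median 300.2) and 38.7 to 266 TPM (median 183) (2.01, SE 0.34, adjusted p = 0.0142). TCIM, LDOC1, DEXI and EEF2, the elongation factor of translation, had 2.49, 1.85, 1.46 and 1.17 (adjusted p = 0.0395, 0.0162, 0.0218 and 0.0343) and did not pass as deposited (adjusted p = 0.0527, 0.0955, 0.421 and 0.763). Leave-outs ended the calls of NDRG2 (adjusted p = 0.052 to 0.0753 without animals 1, 2, 3 or 4), CD74 (adjusted p = 0.0558 without animal 2 or 3), TCIM (adjusted p = 0.0515 to 0.122 without animals 1, 2, 3, 4 or 5), LDOC1 (adjusted p = 0.0525 to 0.0652 without animals 1, 2 or 3), DEXI (adjusted p = 0.055 to 0.0805 without animals 1, 2, 3 or 4) and EEF2 (adjusted p = 0.085 to 0.124 without animals 1, 2, 3 or 4).

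Among the genes lower in parotid outside the lists, ENPP3, an ectoenzyme that splits nucleotides, was at 7.4 to 594 TPM (median 184) in sublingual gland and 0.442 to 1.93 TPM (median 0.783) in parotid (log2 fold change -5.22, SE 0.66, limma adjusted p = 0.00435). CLDN22, a tight junction claudin, was at 5.58 to 408 TPM (median 199) and 0.487 to 3.01 TPM (median 0.886) (-4.87, SE 0.68, adjusted p = 0.00639). In both the lowest sublingual value was that of animal 4, and both calls held with any 1 animal left out. Of the 474 genes called lower, 108 (22.8%) carried LOC identifiers, against 22 of the 348 called higher (6.32%). Of all 21292 genes 3720 carried such identifiers, and their share among the tested genes was not counted.

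Markers of other cell types gave few calls, where 3.21% of all genes were higher and 4.38% lower. For skeletal muscle 0 of 31 tested were higher and 1, TNNT2, lower (-1.82, SE 0.44, adjusted p = 0.0416 in limma), with a median of 1.07 that was -0.41 without animals 4 and 6. With all animals 29 of the 31 muscle markers had positive values, and TNNT2 was 1 of the 2 with negative values. The 12 tested squamous markers had 0 calls and a median of -1.53, which was 0.16 without animals 1, 4 and 6. Duct markers gave 1 higher (CA2) and 2 lower (SCNN1A and KRT7) of 14, and basal and myoepithelial markers 1 lower (TRIM29) of 18. Endothelium gave 2 lower of 11 (CLDN5 and ACKR1, log2 fold changes -1.08 and -1.28) and nerve 1 lower of 5 (PMP22). Macrophage markers gave 1 higher (CD74) and 1 lower (FCER1G) of 11. CD74 was their only positive value, with the other 10 negative and a list median of -0.64. Fibroblast, adipocyte, T cell and red blood cell markers gave 0 calls, and 0 of 8 mast cell markers passed the filter. KRT7, TRIM29, PMP22, FCER1G, TNNT2, CLDN5 and ACKR1 did not pass relative to all but the top 100 genes (adjusted p = 0.0613, 0.0829, 0.0681, 0.0511, 0.0569, 0.0528 and 0.0545). With 1 animal left out the calls of KRT7 (adjusted p = 0.0658 to 0.149 without animals 1, 2, 3, 4 or 6), TRIM29 (adjusted p = 0.0646 to 0.142 without animals 1, 2, 3, 4 or 5) and TNNT2 (adjusted p = 0.0552 to 0.131 without animals 1, 2, 3, 4 or 6) were lost. So were those of PMP22 (adjusted p = 0.0699 to 0.097 without animals 1, 2, 3 or 4), FCER1G (adjusted p = 0.0595 to 0.106 without animals 1, 2, 3 or 4), CLDN5 (adjusted p = 0.0846 to 0.114 without animals 1, 2, 3 or 4) and ACKR1 (adjusted p = 0.109 to 0.127 without animals 1, 2, 3 or 4). As deposited, more of these markers were lower, among them 6 of 14 tested for ducts, 8 of 18 basal and myoepithelial, 9 of 11 endothelial and 10 of 11 macrophage markers. The share of all genes lower as deposited was 34.1%.

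Markers of liver and pancreas, tissues sampled in other libraries of the study, moved with the scaling. The liver markers summed to 660.2 to 1094 TPM in parotid and 1047 to 1387 TPM in sublingual gland. The 15 tested had a median log2 fold change of 0.54 scaled and -0.37 as deposited, and 0 passed, while 2 were higher without animal 6. For 12 tested markers of the pancreatic acinus the medians were 1.07 and 0.09, with 0 passing and 1 higher without animal 6. The part of this low common level in the 348 genes called higher was not tested. Of the 34 genes named by rule that were higher, 23 had a sublingual median at or below the highest liver value, and of the 37 lower ones 31 had such a parotid median. These counts include genes whose liver mean was above both gland means, such as SURF4, ANO1 and IGFBP2. They are therefore not counts of genes at a low common level alone, and the share over all called genes was not counted.

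Mitochondrially encoded genes took 2.64 to 12.1% of TPM in parotid and 3.17 to 16.8% in sublingual gland, and 0 of 13 passed, with a median log2 fold change of 0.23 (-0.79 as deposited and -0.13 without animal 6). CYTB, of complex III, was at 3196 to 13676 TPM (median 5529) in parotid and 1640.5 to 18627 TPM (median 10885) in sublingual gland (log2 fold change 0.52, SE 0.50, limma adjusted p = 0.538), and ATP6, of the ATP synthase, at 2189 to 9499.7 TPM (median 3913) and 6841 to 19067 TPM (median 12049) (-0.50, SE 0.39, adjusted p = 0.45). ATP6 passed as lower in TPM as deposited (adjusted p = 0.02). The highest parotid value of both was that of the muscle-holding piece of animal 6. Of 74 respiratory chain subunits encoded in the nucleus, a list chosen after the values were seen, 7 were lower and 0 higher (45 lower as deposited, 1 after quantile normalisation, 14 without animal 6), among them ATP5MPL and NDUFA1 (-1.28 and -1.06, limma adjusted p = 0.021 and 0.0403), and 0 passed without animals 4 and 6 or without animal 1, 2 or 3 alone. Of all genes 4.38% were lower (34.1% as deposited, 5% without animal 6).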

How the data were processed

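The authors deposited 1 table of TPM for 21292 genes, made with kallisto per the submitters' processing notes; its version, the transcriptome and the summing to genes are not given in the sources used here. Each library sums to the same total, so depth is unknown and no interval or floor is given. All 12 parotid and sublingual columns were used, and 0 per-sample columns were left unmapped. The filter kept 10826 genes that reached 1 TPM in 6 or more of these libraries.

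Each library was multiplied by a factor from the unweighted trimmed mean of its log2 ratios (30% of ratios and 5% of mean levels cut at each end) to the mean profile of 6927 genes with at least 1 TPM in all 12. Log2(value + 1) was fitted with limma 3.58.1 in R 4.3.3, with gland, animal and a variance trend, two-sided, threshold 0.05. Pairing comes from the labels, in which each animal gave both glands; the deviations of its 2 libraries from their gland means correlated at 0.277, 0.269, 0.592, 0.245, -0.273 and -0.00975 in animals 1 to 6, and at -0.0322 on average between animals. The highest correlation between any 2 libraries was 0.967.

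Members, lists and named genes were chosen with earlier results of these data known, so lists get counts and medians only. Named genes were the 12 largest rises and 12 largest falls (a symbol, a call, 6 of 6 animals, at least 100 TPM in the higher gland), genes above 10000 TPM, all tested serous and mucous members, the amylase genes, and up to 3 called members each way of at least 10 TPM from the other lists. KRT13, ODAM, MUC5B, CHRM1, PIGR, SOX10, XBP1, SPDEF, CREB3L1, CHRM3, AQP5, RAB3D, VAMP8, ADRB1 and other list members under that level were added after their values were seen. Gene names and neighbours came from a RefSeq gene table of the macaque, whose build may differ from the authors' and in which 19177 symbols (90.1%) were found. On simulated data for 10717 genes the fit called 28.8%, 74.6% and 80.6% of genes changed by 1, 2 and 3 on the log2 scale in the right direction, and 4.41% of its calls were false. The simulated spread was independent between genes and held no admixed muscle or squamous tissue. These shares therefore need not hold for the glands, and the share of false calls among the 822 is unknown. Results of a few genes are not reported here.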

Additional observations from a re-analysis of the deposited data

Results flagged for a closer look

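For 93 genes in each gland (186 sets of 6 libraries), the highest or lowest log2 of the scaled level stood apart from the other 5 by more than Dixon's 95% critical share of the range in 16 sets, where chance gives about 9.3. The TPM given for each is as deposited. 3 of these were low values in the parotid piece of animal 6, of PRR27 (26.2 TPM), B4GALNT3 (6.52 TPM) and P2RX4 (10.3 TPM). Skeletal muscle markers summed to 167451 TPM in that piece, and their part in these values was not tested.

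In the other parotid pieces, the values standing apart on the low side were C4H6orf58 in animal 1 (1.12 TPM), ZG16 in animal 3 (29.7 TPM) and LOC114669773 in animal 3 (81.1 TPM). On the high side they were GCNT3 in animal 3 (1.77 TPM), SCGB3A1 in animal 4 (3.22 TPM), TFF1 in animal 5 (0.648 TPM) and MUC15 in animal 2 (6.95 TPM).

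In sublingual gland, animal 5 was high in EEF2 (453 TPM), LOC713027 (1034 TPM) and AGR2 (656 TPM). Animal 3 was low in the neighbours LOC107000768 (295 TPM) and LOC695018 (665 TPM), and animal 4 was high in CLU (126 TPM).

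In 2 of 93 genes each of the 4 females moved one way and each of the 2 males the opposite way. Of the 64 patterns of sign that 6 animals allow, 2 are of this kind, a larger share than 2 of 93. The count therefore gives no sign of a difference between the sexes. The mean log2 difference of ATP6, of the mitochondrial ATP synthase, was -0.86 in females and 0.23 in males, a difference of -1.10. That of EGF, epidermal growth factor, was 0.99 in females and -0.19 in males, a difference of 1.18. The difference between the sexes was not tested, and 1 of the 2 males was animal 6, whose parotid piece held muscle.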

How the results depend on the processing

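Of 71 named genes past the threshold, 64 kept their call without the replicate block, 59 in TPM as deposited, 67 after quantile normalisation, 65 relative to all but the top 100 genes, 71 with a pseudocount of 0.1, 70 without the variance trend, 45 without a filter, 68 with a minimum of 5 TPM and 67 in a fit of all 30 libraries. With 1 animal left out 37 to 65 kept it, and 0 reversed in any of these. Dropping the pairing gave 1125 genes, 471 higher and 654 lower.

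TPM as deposited gave 3769 genes, 82 higher and 3687 lower. All but the top 100 genes as total gave 632 higher and 267 lower, no filter 410, 191 and 219, a minimum of 5 TPM 503, 221 and 282, all 30 libraries 2182, 937 and 1245. With 1 animal left out the total ran from 211 to 1336, higher from 91 to 560 and lower from 120 to 776. Without animals 4 and 6 it was 399, 178 and 221, and without animals 1, 4 and 6 it was 338, 111 and 227, of which 275 were shared with the main 822. Without the replicate block the share of the 10 most abundant genes differed by 35.2 points, with an exact permutation p = 0.00866 in place of 0.0625. With the top 50 genes the difference was 26.8 points, and with 1 animal left out 30.1 to 44.9 points.

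Log2 fold changes that changed sign were those of genes that had not passed. As deposited they were CYTB -0.50, COX3 -0.79, COX2 -0.90, CST3 -0.38, EGF -0.080, VEGFA -0.41 and ZG16 -0.047. Quantile normalisation gave CYTB -0.28, COX3 -0.73, COX2 -1.58, LPO 0.25 and CST2 0.32, and all but the top 100 genes gave LPO 0.20 and CST2 0.064. Without animal 6 COX3 was -0.13, COX2 -0.16 and LPO 0.49, without animal 2 LPO was 0.15 and CST2 0.34, and without animal 3 LPO was 0.038; over all leave-outs COX3 ran from -0.13 to 0.48, COX2 from -0.16 to 0.34, LPO from -0.75 to 0.49 and CST2 from -0.53 to 0.34. Without animals 4 and 6 CYTB, COX3 and COX2 were -0.18, -0.32 and -0.34, and without animals 1, 4 and 6 -0.093, -0.12 and -0.20. The alternatives without several animals were chosen after seeing the data. The cause of these changes was not tested. TPM carries no depth, so counting error is unknown for the low genes.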
